A study of Mus musculus with 12 samples.

Results

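Of the 20718 genes in the deposited table, 9 are described here: the chemokine genes Ccl2, Ccl7, Ccl8, Ccl5, Cx3cl1, Cxcl1, Cxcl9, Cxcl10 and Cxcl12. They were chosen by name, with earlier results from these libraries known, and they are not all of the chemokine genes: 29 other ligand genes are in the same table. Chemokines are small secreted proteins that bind G protein-coupled receptors and draw leukocytes along a gradient. They are grouped by the spacing of their first cysteines into CC (Ccl), CXC (Cxcl) and CX3C (Cx3cl) ligands. In the testis, resident macrophages lie between the tubules beside the hormone-producing Leydig cells, and the tissue is known for holding immune responses in check while its germ cells mature.

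RNA sequencing was done on total RNA from the testes of F0 mice of a strain given as IRC mouse, in 12 libraries of 4 groups with 3 libraries each. A virus was used to overexpress the long noncoding RNA lncRNA8276 in the group 8276OV and to inhibit it in the group 8276KD. The groups 5NC and 3NC are read here as controls. Their abbreviations are not spelled out, and the design statement lists 5NC beside overexpression and 3NC beside knockdown. The labels name neither the type of virus, its promoter and the cells it entered nor the age of the mice. They also do not say whether libraries of a group came from separate animals, so p-values measure only the spread between these samples. No gene symbol in the table carries the number of lncRNA8276, and its level was not analysed here.

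Libraries held 15448442 to 16355720 reads, and levels of 1 gene are given as CPM, the gene's reads over the library total times 1e6. A count of 0 allows up to 3 reads, which is 0.183 to 0.194 CPM; this limit and the intervals below cover counting error only. Germ cell markers summed to 17170 to 21889 CPM over the 12 libraries, Leydig cell markers to 1473 to 3585 CPM and Sertoli cell markers to 972 to 1900 CPM, so markers of these 3 testis cell types were detected in every library. Markers of epididymis and fat summed to 139 and 138 CPM in 5NC replicates 2 and 3 and to 14 to 32.1 CPM in the other 10 libraries. One library stood apart from its group: 3NC replicate 2 had the highest 3NC level of 8 of the 9 genes (all but Ccl5), with 208 Ccl8 reads against 23 and 20 in the other 2 libraries and 64 Cxcl9 reads against 4 and 15. Where a stated order of groups or of the 9 genes turned on this library, the value without it is given. In bulk tissue, fewer cells of a type and less RNA per cell cannot be told apart.

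Between genes, levels were compared as FPKM, which also divides by transcript length. In 3NC the 9 genes ranked, by mean FPKM ± SD with n = 3, as Ccl8 (14.0 ± 17.9), Cxcl12 (11.5 ± 2.83), Ccl2 (4.71 ± 0.918), Ccl7 (4.66 ± 1.91), Cx3cl1 (2.68 ± 0.645), Ccl5 (2.61 ± 0.809), Cxcl1 (1.89 ± 1.18), Cxcl10 (0.803 ± 0.527) and Cxcl9 (0.620 ± 0.705). In 8276OV the level of Ccl8 was 72.2 ± 30.8 FPKM and that of Cxcl12 was 10.4 ± 3.45 FPKM, while Ccl2 was at 0.790 ± 0.911 FPKM. The first place of Ccl8 in 3NC rested on replicate 2: without it Ccl8 had a mean of 3.66 FPKM, below Cxcl12 (10.2) and Ccl2 (4.38) and close to Ccl7 (3.65). Without that library Ccl5 (2.73 FPKM) also came above Cx3cl1 (2.33). In 8276OV, Ccl8 was above Cxcl12 in every library.

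**Figure D1:**
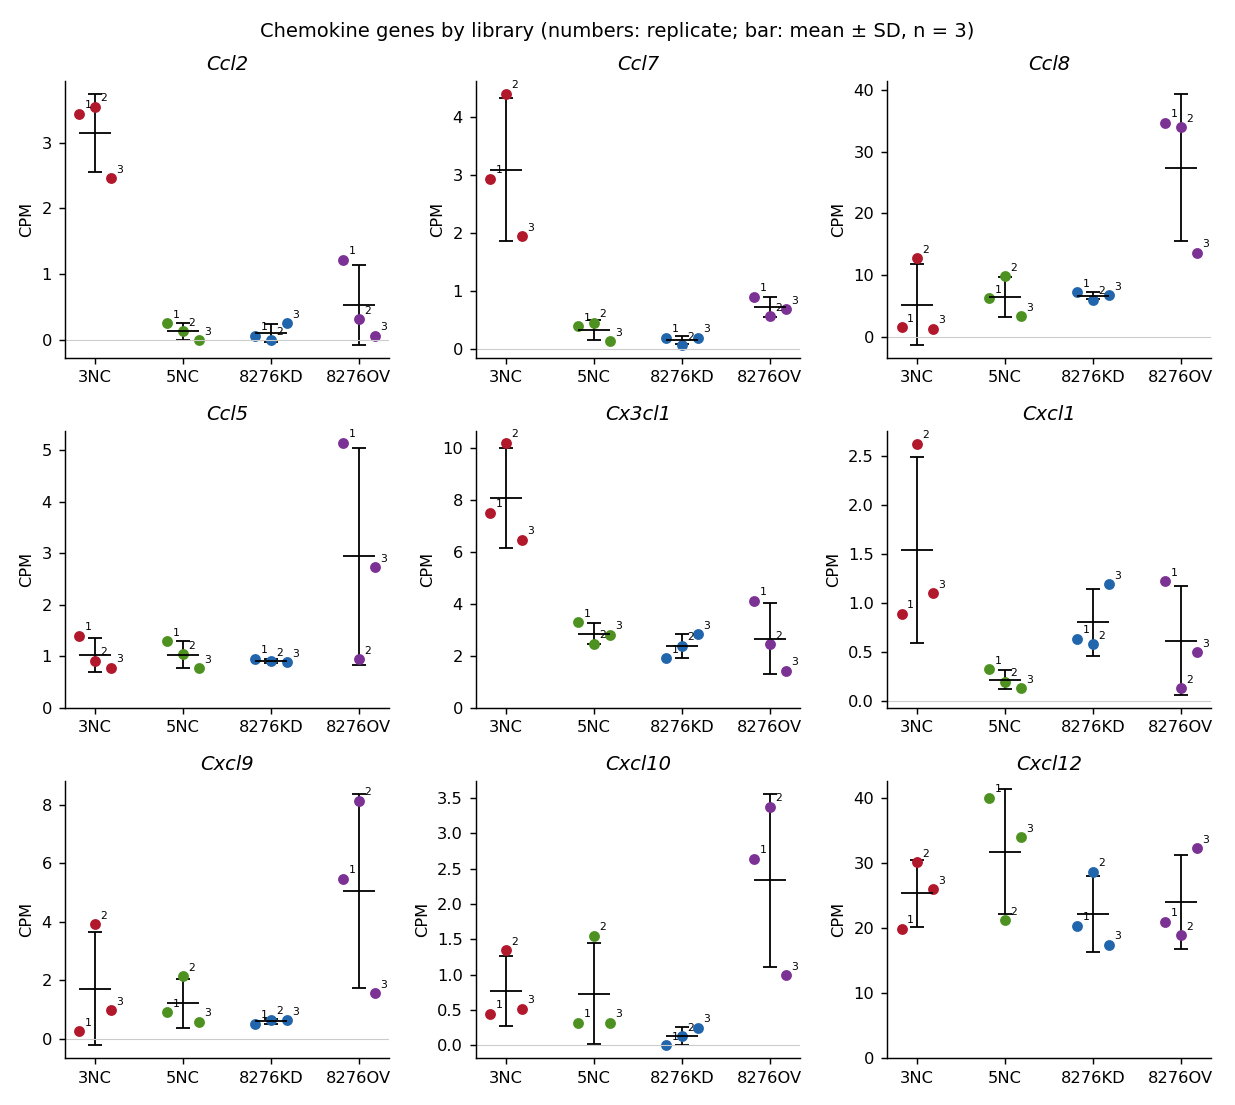
Level of each of the 9 chemokine genes in CPM (vertical axis, one scale per panel) in the 4 groups; points are libraries numbered by replicate, and bars are the mean ± SD of 3 libraries. Ccl2, Ccl7 and Cx3cl1 are highest in all 3 3NC libraries, whereas Ccl8, Cxcl9 and Cxcl10 have their highest values in 8276OV.

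The genes fell into 3 kinds of pattern. Ccl2, Ccl7 and Cx3cl1 were high in every 3NC library and lower in each of the other 9 libraries. Ccl8, Cxcl9, Cxcl10 and Ccl5 had their highest group mean in 8276OV. Cxcl12 differed by a fitted fold of at most 1.39 between any 2 groups, and Cxcl1 followed the first kind in part. The differences from 3NC were known when the genes were chosen, so they are given as a description, with no p-value. Comparisons that do not use 3NC are given with their tests.

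Ccl2 and Ccl7 encode the CC chemokines also called MCP-1 and MCP-3, which attract monocytes through CCR2 (Ccl7 also through other receptors). The genes are neighbours on chromosome 11 (GRCm38.p6, the mm10 build): Ccl2 (gene 20296) lies at 82035577 to 82037452 and Ccl7 (gene 20306) at 82045712 to 82047525, 8.26 kb apart. Ccl2 had 54, 58 and 38 reads in the 3 3NC libraries, 4, 2 and 0 in 5NC, 1, 0 and 4 in 8276KD and 19, 5 and 1 in 8276OV. The 3NC libraries were thus above all 9 others, and the other 3 groups overlapped one another. Over the group, the Ccl2 share of reads in 3NC was 29.8 times that in 8276KD (150 against 5 reads, 95% exact interval 12.5 to 93.2) and 24.5 times that in 5NC (interval 11 to 67.8). Against 8276OV the ratio was 6.02 (interval 3.92 to 9.6), and 19 of the 25 reads of that group came from 1 library, replicate 1. Fitted log2 fold changes of Ccl2 against 3NC were -4.79 ± 0.82 (SE) in 8276KD, -4.56 ± 0.80 in 5NC and -2.57 ± 0.64 in 8276OV; without 8276OV replicate 1 the last was -4.02. These 3 comparisons share the 3NC libraries.

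Ccl7 had 46, 72 and 30 reads in 3NC, 6, 7 and 2 in 5NC, 3, 1 and 3 in 8276KD and 14, 9 and 11 in 8276OV. Its order was 3NC, 8276OV, 5NC and 8276KD; 3NC did not overlap 8276OV, 8276OV did not overlap 5NC, and 5NC and 8276KD overlapped. Mean levels were 3.09 ± 1.24 CPM in 3NC, 0.716 ± 0.171 in 8276OV, 0.323 ± 0.172 in 5NC and 0.148 ± 0.072 in 8276KD (SD, n = 3). The log2 fold change against 3NC was -4.31 ± 0.48 in 8276KD, -3.26 ± 0.43 in 5NC and -2.11 ± 0.38 in 8276OV.

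Cx3cl1 encodes fractalkine, the one CX3C ligand, which is made on the cell membrane and released by the proteases ADAM10 and ADAM17; its receptor CX3CR1 is carried by monocytes and tissue macrophages. The gene (20312) lies on chromosome 8 at 94772180 to 94782427, 20.8 kb from Ccl22 and 27.0 kb from Ccl17. It had 7.52, 10.2 and 6.47 CPM in 3NC, 3.29, 2.46 and 2.82 in 5NC, 1.90, 2.39 and 2.83 in 8276KD and 4.12, 2.44 and 1.43 in 8276OV. Again all 3NC libraries were above the rest, and the other groups overlapped. The difference from 3NC was smaller than for Ccl2 and Ccl7: -1.76 ± 0.30 in 8276KD, -1.53 ± 0.29 in 5NC and -1.61 ± 0.29 in 8276OV, on the log2 scale. Its counts, 23 to 167 reads per library, gave smaller standard errors than those of Ccl2 and Ccl7.

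Cxcl1 encodes KC, a CXC chemokine that attracts neutrophils through CXCR2; the gene (14825) lies on chromosome 5 at 90891245 to 90893121. It had 14, 43 and 17 reads in 3NC, 5, 3 and 2 in 5NC, 10, 9 and 19 in 8276KD and 19, 2 and 8 in 8276OV. The 5NC libraries were all below those of 3NC and of 8276KD, while 3NC overlapped 8276KD and 8276OV. The log2 fold change of 5NC against 3NC was -2.83 ± 0.68, and -2.20 without 3NC replicate 2.

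The fit over all genes also covers the comparisons with 3NC, and its counts are given for the record only, since these differences chose the genes. In it 3 of the 9 genes (Ccl2, Ccl7 and Cx3cl1) passed the edgeR threshold as lower in 8276KD than in 3NC, where 0.153% of 16320 genes tested were lower (0.178% in either direction, 0.0245% higher). The same 3 genes passed as lower in 5NC than in 3NC, where 0.288% of all genes did (0.362% in either direction, 0.0735% higher). Ccl7 and Cx3cl1 passed as lower in 8276OV than in 3NC, where 0.276% of all genes did (0.319% in either direction, 0.0429% higher). Groups did not overlap and were lower than 3NC for 4 genes in 8276KD (8.47% of all genes), 4 in 5NC (6.44%) and 3 in 8276OV (3.41%); 1 gene, Ccl8, was higher in 8276OV without overlap (4.21%), and 0 were in 8276KD (7.95%) or 5NC (10.2%). Nothing is read from these counts. When 1 library was left out, Ccl7 was still called in every such fit of 8276KD or 5NC against 3NC, but Ccl2 in none of them. A kept call is no added support, since these fits reuse 3NC libraries whose differences were known beforehand. Cx3cl1 was called in 1 of these fits, 8276KD against 3NC without 3NC replicate 3. The count was therefore 1 to 2 in 8276KD and 1 in 5NC, whichever library was left out, and 0 to 2 in 8276OV, where it stayed 2 without 8276OV replicate 1 alone and was 0 without 3NC replicate 1.

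**Figure D2:**
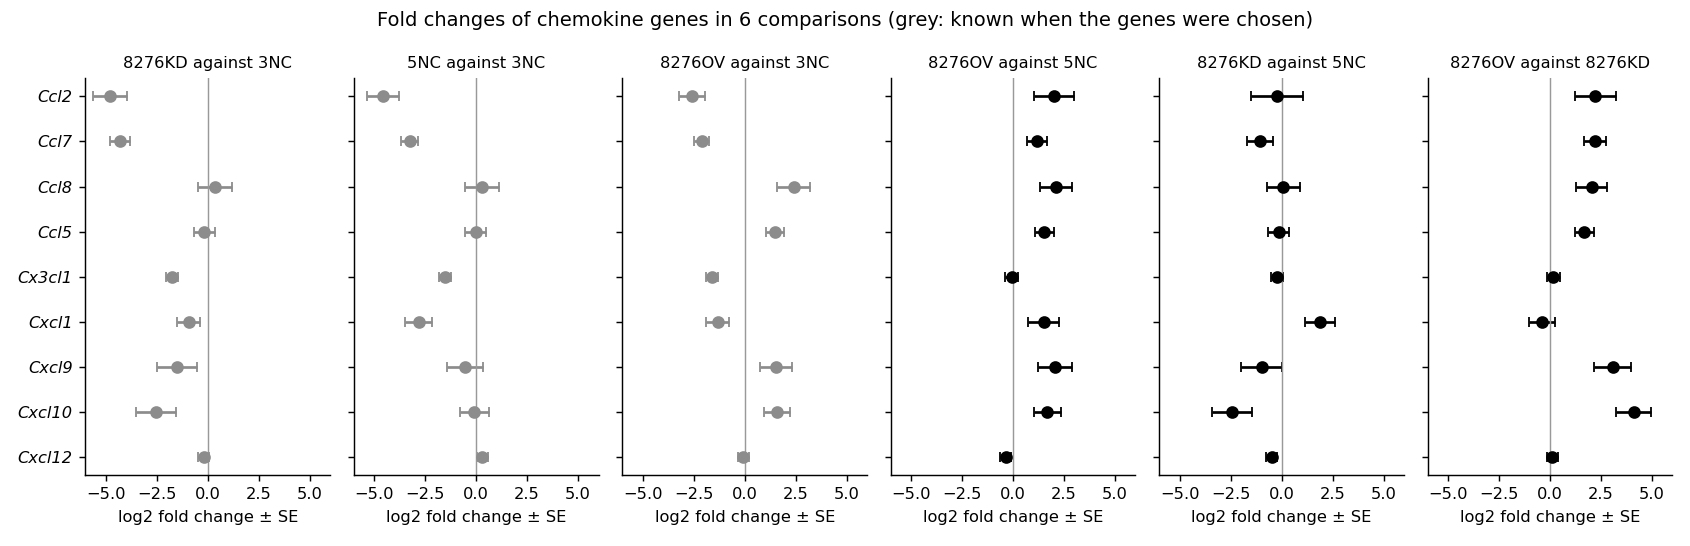
Log2 fold change ± SE (horizontal axis) of the 9 chemokine genes in each of the 6 comparisons between groups; grey marks the 3 comparisons with 3NC, which were known when the genes were chosen. Ccl2, Ccl7 and Cx3cl1 lie below 0 in all 3 grey panels, and in 8276OV against 8276KD Cxcl10 lies farthest from 0, at 4.11.

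Ccl8 encodes MCP-2, a CC chemokine, in the same cluster as Ccl2 and Ccl7. Its gene (20307) lies on chromosome 11 at 82115185 to 82116799, with Ccl11 and Ccl12 between it and Ccl7. It had 1.47, 12.7 and 1.29 CPM in 3NC, 6.20, 9.77 and 3.27 in 5NC, 7.15, 5.998 and 6.72 in 8276KD and 34.7, 34 and 13.6 in 8276OV. All 3 8276OV libraries were above the other 9, and 3NC held both the lowest libraries and, in replicate 2, the highest outside 8276OV. The order of means was 8276OV (27.4 ± 12 CPM, SD, n = 3), 8276KD (6.62 ± 0.584), 5NC (6.41 ± 3.26) and 3NC (5.16 ± 6.55), of which the last 3 overlapped. Against 3NC, the log2 fold change of 8276OV was 2.40 ± 0.80 with 3NC replicate 2 and 4.29 without it; that of 8276KD was 0.36 ± 0.83 with it and 2.25 without it. Of the neighbours in the cluster, Ccl2, Ccl7 and Ccl8 were therefore not high in the same libraries.

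Cxcl9 and Cxcl10 encode MIG and IP-10, interferon-induced CXC chemokines that attract activated T cells and NK cells through CXCR3. They lie 18.6 kb apart on chromosome 5, Cxcl9 (gene 17329) at 92321331 to 92328079 and Cxcl10 (gene 15945) at 92346638 to 92348889. Cxcl9 had 4, 64 and 15 reads in 3NC, 14, 33 and 9 in 5NC, 8, 10 and 10 in 8276KD and 85, 130 and 25 in 8276OV. Cxcl10 had 7, 22 and 8 reads in 3NC, 5, 24 and 5 in 5NC, 0, 2 and 4 in 8276KD and 41, 54 and 16 in 8276OV. In both genes 8276OV replicates 1 and 2 were the highest libraries, 8276OV replicate 3 was within the range of the controls, and replicate 2 was the highest library of 3NC and of 5NC.

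For both genes the order of means over all libraries was 8276OV, 3NC, 5NC and 8276KD, but 3NC came before 5NC through replicate 2: without it the 3NC mean was 0.613 CPM for Cxcl9 and 0.482 CPM for Cxcl10, below 5NC. Cxcl9 means were 5.05 ± 3.31, 1.71 ± 1.94, 1.21 ± 0.822 and 0.593 ± 0.0757 CPM (SD, n = 3), and neighbours in that order overlapped. Cxcl10 means were 2.34 ± 1.22, 0.770 ± 0.5, 0.732 ± 0.711 and 0.127 ± 0.126 CPM, and all 3 8276KD libraries were below the other 9. For Cxcl10 in 8276KD, 2 of the 3 libraries were below the level that a count of 0 allows. Without 3NC replicate 2, the log2 fold change of Cxcl9 in 8276OV against 3NC went from 1.54 to 3.02, and that in 8276KD went from -1.52 to -0.05.

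Ccl5 encodes RANTES, a CC chemokine made by T cells and macrophages that binds CCR1; the gene (20304) lies on chromosome 11 at 83525778 to 83530518. It had 1.40, 0.917 and 0.777 CPM in 3NC, 1.29, 1.04 and 0.769 in 5NC, 0.949, 0.903 and 0.880 in 8276KD and 5.15, 0.939 and 2.73 in 8276OV. Of the 12 libraries, 8276OV replicates 1 and 3 were the highest; replicate 2, which was highest of all for Cxcl9 and Cxcl10, was at the level of the controls. The log2 fold change against 3NC was 1.49 ± 0.46 in 8276OV.

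Cxcl12 encodes SDF-1, a homeostatic CXC chemokine made by stromal cells that signals through CXCR4 and is taken up by ACKR3; in the testis it is known from the niche of the spermatogonial stem cells. The gene (20315) lies on chromosome 6 at 117168535 to 117181368. It had 19.9, 30.1 and 26.0 CPM in 3NC, 40.0, 21.2 and 33.9 in 5NC, 20.3, 28.6 and 17.4 in 8276KD and 20.9, 18.8 and 32.3 in 8276OV. All neighbours in the order of means overlapped, and no comparison of Cxcl12 had an absolute log2 fold change above 0.48. Its 3NC mean was 25.3 CPM, above 8276OV (24.0), and 22.9 CPM without 3NC replicate 2, below 8276OV.

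**Figure D3:**
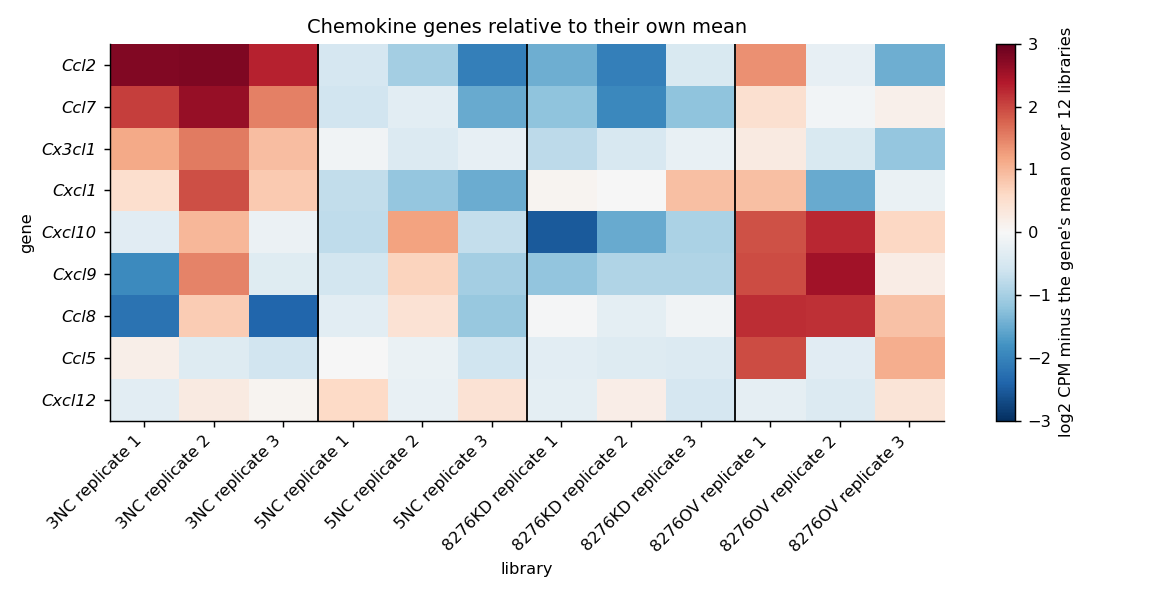
Log2 CPM of each chemokine gene minus its own mean over the 12 libraries (color), with libraries in columns and genes in rows. Ccl2, Ccl7 and Cx3cl1 are red in the 3 3NC libraries, and Cxcl10, Cxcl9 and Ccl8 are red in 8276OV and, more weakly, in replicate 2 of 3NC and of 5NC.

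Across the 12 libraries, Pearson's r of log2 CPM was 0.925 between Ccl2 and Ccl7, 0.914 between Ccl2 and Cx3cl1, 0.872 between Cxcl9 and Cxcl10 and 0.828 between Ccl8 and Cxcl9. Ccl2 and Ccl8, of 1 cluster, had r of -0.192. These are descriptions over 12 libraries that share groups, and they carry no test. The genes most alike to each member by the same measure, among genes with a mean of at least 1 CPM, differed between the patterns. For Cx3cl1 they were Socs3 (r = 0.955, a feedback inhibitor of cytokine signalling), Nr4a3 (0.953, an early-response nuclear receptor), Maff (0.940), Tbx3 (0.936) and Medag (0.926). For Ccl2 they were Tmem252 (0.957), Socs3 (0.947), Itga5 (0.928), Maff (0.927) and Ccl7 (0.925), so Socs3 and Maff were in both lists. For Ccl7 they were Itga5 (0.924), Pgm1 (0.919), Ugdh (0.907), Ifrd1 (0.904) and Bach1 (0.897).

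For Cxcl9 the most alike genes were Gbp9 (0.973, an interferon-induced GTPase), H2-T23 (0.965, a nonclassical MHC class I gene), Samhd1 (0.964) and Ciita (0.963, the activator of MHC class II genes). For Cxcl10 they were Gm12250 (0.931), Gbp7 (0.931), Irgm2 (0.930), Trim34a (0.928) and Gbp4 (0.921), of which Gbp7, Irgm2 and Gbp4 are interferon-induced GTPases. For Ccl8 they were Casp12 (0.925), Trim21 (0.914), Tlr13 (0.909), H2-DMb1 (0.904) and Asb13 (0.904). For Ccl5 they were Slc11a1 (0.945, an ion transporter of macrophage phagosomes), Clec4a1 (0.909), Itgam (0.864, the CD11b chain of myeloid cells), Steap4 (0.855) and Mettl6 (0.854). The leading gene was Adh4 (0.934) for Cxcl1 and Rbbp9 (0.933) for Cxcl12.

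The 250 bases before the start of 4 of the genes are shown because Ccl8, Cxcl9 and Cxcl10 were high in the same group while Cx3cl1 was not. The sequences are from RefSeq (GRCm38.p6), which gave an entry for 6 of the 9 genes (Ccl8, Cx3cl1, Cxcl1, Cxcl9, Cxcl10 and Cxcl12). They are read 5′ to 3′ on the strand of the gene, with the base next to the start last. Capitals mark matches, on either strand, to 4 motifs: kB, bound by NF-kB (3 G, any 5 bases, then 2 C), the interferon response element (G and 3 A, any 2 bases, then G and 3 A), TGANTCA (AP-1) or TTCNNNGAA (STAT site). The positions are chr5:92348890-92349139 on the minus strand for Cxcl10, chr5:92328080-92328329 on the minus strand for Cxcl9, chr11:82114935-82115184 on the plus strand for Ccl8 and chr8:94771930-94772179 on the plus strand for Cx3cl1.
Cxcl10: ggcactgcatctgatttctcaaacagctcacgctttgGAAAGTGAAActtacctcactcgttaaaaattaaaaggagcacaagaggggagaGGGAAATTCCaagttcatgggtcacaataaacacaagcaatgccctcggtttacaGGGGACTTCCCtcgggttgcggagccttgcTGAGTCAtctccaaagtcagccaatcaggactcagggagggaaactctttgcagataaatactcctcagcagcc
Cxcl9: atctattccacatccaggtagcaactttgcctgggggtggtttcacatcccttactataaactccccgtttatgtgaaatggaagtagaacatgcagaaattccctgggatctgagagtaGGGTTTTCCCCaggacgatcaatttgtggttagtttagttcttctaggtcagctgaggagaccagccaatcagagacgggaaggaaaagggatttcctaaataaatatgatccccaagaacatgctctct
Ccl8: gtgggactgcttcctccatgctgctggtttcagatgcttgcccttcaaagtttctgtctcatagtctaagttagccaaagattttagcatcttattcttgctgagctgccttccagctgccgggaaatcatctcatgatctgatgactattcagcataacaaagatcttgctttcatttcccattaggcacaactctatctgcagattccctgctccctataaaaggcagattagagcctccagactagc
Cx3cl1: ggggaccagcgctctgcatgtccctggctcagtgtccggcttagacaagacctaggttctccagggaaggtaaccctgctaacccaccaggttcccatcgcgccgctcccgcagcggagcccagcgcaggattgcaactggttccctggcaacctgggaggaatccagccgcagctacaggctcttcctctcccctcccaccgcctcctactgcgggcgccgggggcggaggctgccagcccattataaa
Counted back from the start, the Cxcl10 sequence held the interferon response letters at -213 to -204, kB letters at -159 to -150 and in overlapping windows at -104 to -95 and -103 to -94, and the AP-1 letters at -74 to -68. The Cxcl9 sequence held overlapping kB matches at -130 to -121 and -129 to -120. Those of Ccl8 and Cx3cl1 held 0 matches to the 4 motifs. Of the 2 other sequences with an entry, that of Cxcl1 held kB matches at -90 to -80 and -71 to -61, where windows on both strands overlap, and that of Cxcl12 held 1, at -36 to -27. Among 32851 RefSeq promoters of this length, 45.8% held the kB letters, 2.98% the interferon response letters, 6.75% the AP-1 letters and 7.02% the STAT letters. A match is a run of letters and not a shown binding site, and a sequence without one may be bound outside this window or through other letters.

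8276OV against 5NC asks which genes differ with overexpression of lncRNA8276, and it uses no 3NC library. Mean levels of 7 of the 9 genes were higher in 8276OV. Ccl2, Ccl7 and Cxcl1, 3 of these 7, pass the filter on low counts through libraries of other groups and not in the 8276OV and 5NC libraries alone, so the number is no support for a shared direction. By edgeR's quasi-likelihood test with Benjamini-Hochberg adjustment, 0 of the 9 genes were called, beside 0% of all genes. At an unadjusted p under 0.05 the test had 5 of the 9 genes and 1698 of all genes. DESeq2 also called 0 of the 9, beside 44 of all genes. The log2 fold change was 2.11 ± 0.79 (SE) for Ccl8 (edgeR adjusted p = 0.444), 2.07 ± 0.83 for Cxcl9 (edgeR adjusted p = 0.444), 1.67 ± 0.65 for Cxcl10 (edgeR adjusted p = 0.441) and 1.52 ± 0.46 for Ccl5 (edgeR adjusted p = 0.404). It was 1.99 ± 0.97 for Ccl2 (edgeR adjusted p = 0.487), 1.5 ± 0.76 for Cxcl1 (0.498), 1.15 ± 0.49 for Ccl7 (0.444), -0.08 ± 0.31 for Cx3cl1 (0.930) and -0.37 ± 0.27 for Cxcl12 (0.608). Without 8276OV replicate 1 the change was 0.538 for Ccl2, 0.548 for Cxcl1 and 0.857 for Ccl5. For Ccl7 and Ccl8, all 3 libraries of 8276OV were above all 3 of 5NC, a pattern that 6.46% of all genes had in this direction; 0 of the 9 had the opposite one, which 8.79% of all genes had.

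Replicate numbers of 8276OV and 5NC weakly met a rule for pairing by correlated deviations from group means. Differently numbered libraries of 8276OV and 3NC also reached r of 0.18, so these values do not establish a pairing. A fit of the 6 libraries of 8276OV and 5NC with the replicate number as a block changed the calls. In that fit edgeR called 3 of the 6 chemokine genes that passed its filter, all higher in 8276OV, where 0.809% of 15950 genes were called higher (1.33% in either direction). Cxcl9 and Cxcl10 passed this filter only with 8276OV libraries, where they were high. In 5NC, Cxcl9 had 14, 33 and 9 reads and Cxcl10 had 5, 24 and 5. The number called is thus no support for a shared direction. The log2 fold change was 2.12 ± 0.16 for Ccl8 (edgeR adjusted p = 4.98e-12), 2.05 ± 0.29 for Cxcl9 (edgeR adjusted p = 1.17e-05) and 1.78 ± 0.38 for Cxcl10 (edgeR adjusted p = 0.00749). Ccl5, at 1.37 ± 0.37, did not pass (edgeR adjusted p = 0.0772), and Ccl2, Ccl7 and Cxcl1 were not tested there. By number, 8276OV had 5.60, 3.48 and 4.16 times the Ccl8 level of 5NC for replicates 1, 2 and 3, and 6.05, 3.81 and 2.69 times the Cxcl9 level. For Cxcl10 the ratios were 8.17, 2.18 and 3.10, whereas for Ccl5 they were 3.99, 0.906 and 3.55. The block in a fit of all 4 groups called 0 of the 9 genes, and the pairing was inferred from the same values that were tested.

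8276OV against 8276KD compares both manipulations directly. Means of 8 of the 9 genes were higher in 8276OV, of which Ccl2 and Ccl7 do not pass the filter in these 6 libraries alone. Cxcl9 and Cxcl10 pass it there only with 8276OV libraries, where they were high. In 8276KD, Cxcl9 had 8, 10 and 10 reads and Cxcl10 had 0, 2 and 4. The number of higher means is thus no support for a shared direction. edgeR called 0 of the 9 genes, beside 0.0551% of all genes (0.0123% higher and 0.0429% lower); 6 of the 9 had an unadjusted p under 0.05, as did 1279 of all genes. The change was 4.11 ± 0.86 for Cxcl10 (edgeR adjusted p = 0.127), 3.06 ± 0.91 for Cxcl9 (edgeR adjusted p = 0.421), 2.20 ± 0.56 for Ccl7 (edgeR adjusted p = 0.239), 2.03 ± 0.78 for Ccl8 (edgeR adjusted p = 0.573) and 1.67 ± 0.47 for Ccl5 (edgeR adjusted p = 0.269). These libraries of Cxcl10, Cxcl9, Ccl7 and Ccl8 did not overlap between the groups, which 10.9% of all genes had in this direction; 0 were lower without overlap (8.5% of all genes). DESeq2 called Cxcl10 (log2 fold change 4.19, adjusted p = 0.00247) and Cxcl9 (3.08, adjusted p = 0.0132), where it called 0.722% of 19255 genes (0.623% higher). With a replicate block, although the numbers did not pair these groups, edgeR called Cxcl10 in the fit of all 4 groups (0.19% of all genes, 0.135% higher) and Cxcl9 in the fit of these 6 libraries (0.289% of 15937 genes, 0.22% higher). Leaving out 8276OV replicate 3 gave Cxcl10 an edgeR adjusted p of 0.0357, and leaving out 8276OV replicate 2 gave Ccl5 one of 0.0271. In each case the left-out library had the lowest 8276OV level of that gene. Of all genes, edgeR called 74 without replicate 3 and 19 without replicate 2, beside 9 in the main fit. By reads, Cxcl10 had 111 in 8276OV and 6 in 8276KD, a ratio of read shares of 18.3 (95% exact interval 8.16 to 51).

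Between 8276KD and 5NC, edgeR called 0 of the 9 genes, beside 0.0490% of all genes. DESeq2 called 0 as well, beside 36 of all genes. By edgeR, 2 of the 9 and 825 of all genes had an unadjusted p under 0.05. Those 2 were Cxcl10, lower in 8276KD by -2.43 ± 0.98 on the log2 scale (edgeR adjusted p = 0.937), and Cxcl1, higher by 1.90 ± 0.74 (edgeR adjusted p = 0.937). Both have too few reads to pass the filter in the 8276KD and 5NC libraries alone, where 5 of the 9 genes pass. For both genes the groups did not overlap, as was so for 8.25% of all genes that were lower and 5.78% that were higher. Ccl2 and Cx3cl1, which were high in 3NC, differed here by -0.23 ± 1.29 (edgeR adjusted p = 0.999) and -0.23 ± 0.31 (edgeR adjusted p = 0.99). For Ccl2 the SE is wide, with 5 reads against 6, so that a sizeable difference was not detectable at this depth.

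Among the 29 other ligand genes of the table, 15 passed the filter, and edgeR called 0 of them in each of the 6 comparisons, as did DESeq2; 1 to 3 of the 15 had an unadjusted p under 0.05 in each. Their median log2 fold change in 8276OV against 5NC was 0.112, with 8 higher and 7 lower. By FPKM the highest were Ccl27a, Ccl27b, Ccl21a, Ccl22, Ccl25 and Ccl17; Ccl27 and Ccl21 genes have near-identical copies, so their reads are uncertain. Ccl12, between Ccl7 and Ccl8 in the cluster, had 1.63 ± 0.6 CPM in 3NC, 1.01 ± 0.368 in 8276OV, 0.711 ± 0.554 in 5NC and 0.488 ± 0.0994 in 8276KD. Its order is that of Ccl7, and it was named here for its position. Ccl11 had 0 to 3 reads per group and is at the floor. Cxcl2, which did not pass the filter, had 11 reads in 3NC and 0 in each other group. Ccl22 and Ccl17, the neighbours of Cx3cl1, did not pass in any comparison; Ccl22 had 10.1 ± 0.476 CPM in 3NC and 7.72 ± 0.259 in 8276OV.

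Of 22 receptor genes in the table, 13 passed the filter, and edgeR called 0 of them in any of the 6 comparisons, with 0 to 6 at an unadjusted p under 0.05; DESeq2 called 1, in 8276OV against 8276KD. In 8276OV against 5NC, 11 of the 13 had higher means (median log2 fold change 0.349). The receptors described next were named because they bind 1 or more of the 9 ligands. Ccr2, the receptor of Ccl2 and Ccl7, was at 0.382, 1.47 and 0.194 CPM in 3NC, where its ligands were highest, and at 3.93, 1.06 and 2.42 CPM in 8276OV.

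Cx3cr1, the receptor of Cx3cl1, had 4.40 ± 2.16 CPM in 3NC, 6.77 ± 1.27 in 5NC, 5.00 ± 1.22 in 8276KD and 8.94 ± 1.78 in 8276OV (SD, n = 3). It was thus lowest on average in the group where its ligand was highest, and the 3NC libraries overlapped those of 5NC and 8276KD. Ccr1 had 1.06 to 2.12 CPM in 8276OV and 0.449 to 1.23 in 5NC. Cxcr3, the receptor of Cxcl9 and Cxcl10, had 0 to 8 reads per library and did not pass the filter. Cxcr2, the receptor of Cxcl1, had 0.322 to 0.726 CPM over the 12 libraries. Cxcr4 and Ackr3, the receptors of Cxcl12, had 2.11 to 4 and 3.52 to 7.07 CPM, and neither passed in any comparison. Others of the highest FPKM were Ccr6, Ccr4 and Ccrl2.

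**Figure D4:**
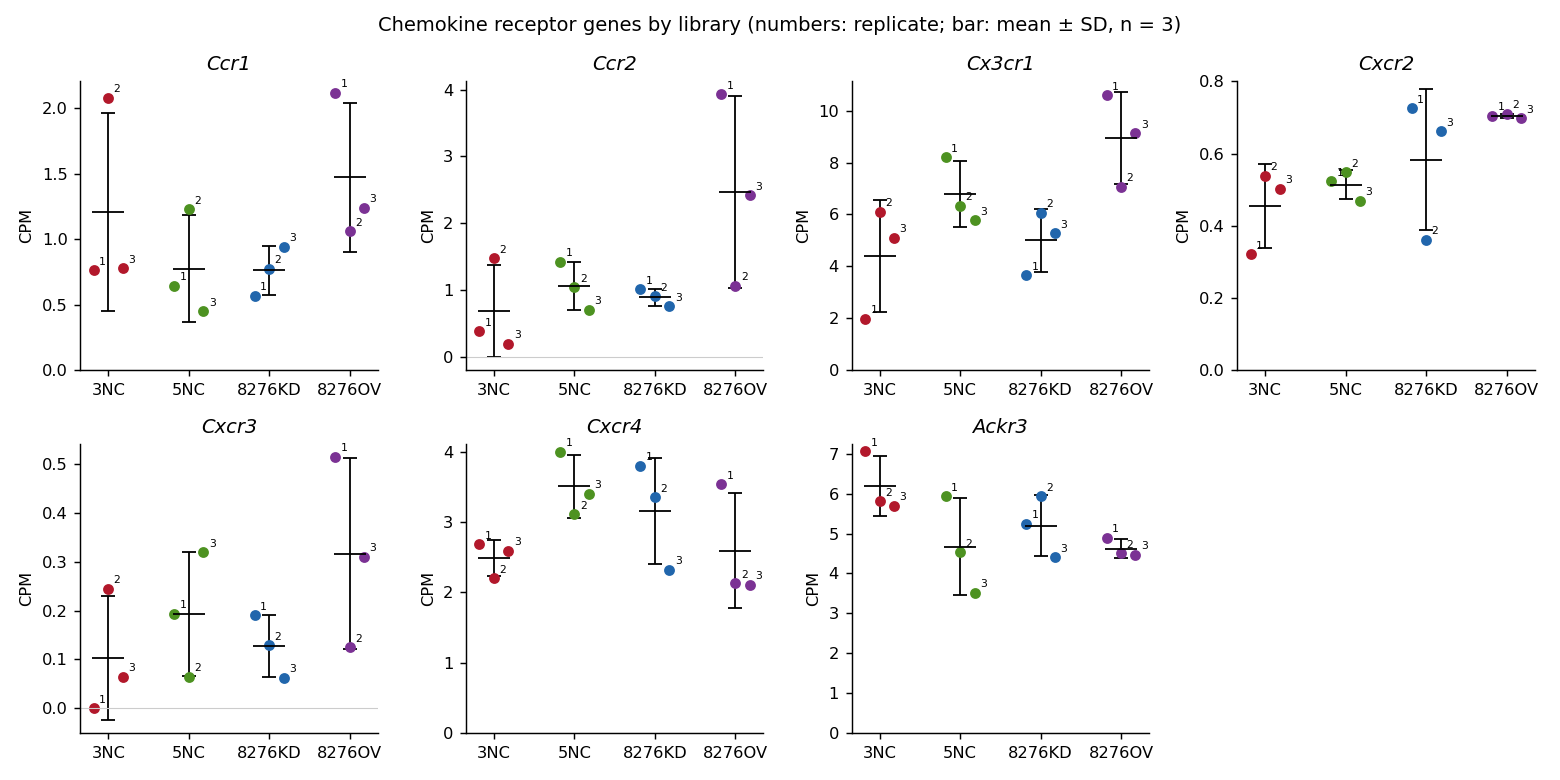
Level in CPM (vertical axis, one scale per panel) of 7 chemokine receptor genes in the 4 groups; points are libraries numbered by replicate and bars are the mean ± SD of 3 libraries. Cx3cr1 is at 7.07 to 10.6 CPM in 8276OV and at 1.98 to 6.11 CPM in 3NC.

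Enzymes that release or trim chemokines were tested for 5 genes, of which edgeR called 0 in each comparison, with at most 1 at an unadjusted p under 0.05; DESeq2 called 1, in 8276OV against 8276KD. Adam10 and Adam17, which shed fractalkine, had 38.5 ± 8.14 and 21.6 ± 0.942 CPM in 3NC and 33.1 ± 1.45 and 21.8 ± 2.22 CPM in 8276KD. Ctss, cathepsin S, had 22.0 ± 10.2 CPM in 8276OV and 8.73 ± 2.40 in 5NC, a log2 fold change of 1.36 ± 0.46 (edgeR adjusted p = 0.419). With the replicate block, whose pairing was inferred from the same values, the edgeR adjusted p was 2.35e-07. The other members were Mmp2 and Dpp4. The libraries of 3NC and 8276KD overlapped for both proteases of Cx3cl1.

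Of 20 genes of the NF-kB pathway, which drives Ccl2, Cxcl1 and Cxcl10 in many cells, edgeR called 0 in each of the 6 comparisons, and 0 to 3 had an unadjusted p under 0.05; DESeq2 called 0. Nfkbia, which encodes the inhibitor that NF-kB itself induces, differed by 0.04 ± 0.15 on the log2 scale in 8276KD against 3NC (edgeR adjusted p = 0.95). The highest by FPKM were Nfkbib, Rela, Chuk, Myd88, Nfkbia and Tnfrsf1a. Of 10 cytokine genes known to induce chemokines, 4 passed the filter (Csf1, Il33, Il1a and Il1b). edgeR and DESeq2 called 0 of them in each comparison, with 0 to 2 of the 4 at an unadjusted p under 0.05. Il6 had 0 reads in all 12 libraries. Tnf had 2 reads in 3NC, 4 in 5NC, 1 in 8276KD and 15 in 8276OV, and Ifng had at most 1 read per group. Osm, also below the filter, had 27 reads in 3NC, 2 in 5NC, 6 in 8276KD and 7 in 8276OV. Lif went the other way, with 2 reads in 3NC, 26 in 5NC, 12 in 8276KD and 13 in 8276OV.

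Of 14 genes of interferon signalling, edgeR called 0 in each comparison, and the number at an unadjusted p under 0.05 was 1 to 8; calls by DESeq2 were 3, all higher, in 8276OV against 8276KD and 1 in 8276OV against 3NC. Irf1, the interferon-induced factor that acts on Cxcl9 and Cxcl10 genes, had 3.44, 15.3 and 6.54 CPM in 3NC, 9.56, 21.2 and 4.17 in 5NC, 3.86, 2.90 and 4.59 in 8276KD and 24.8, 35.6 and 9.74 in 8276OV. It was highest in 8276OV replicate 2 and, within 3NC and within 5NC, in replicate 2, as Cxcl9 and Cxcl10 were. With the replicate block, whose pairing was inferred from the same values, Irf1, Irf7 and Stat2 were called higher in 8276OV than in 5NC. Irf1 changed by 1.11 ± 0.15 in that fit (edgeR adjusted p = 1e-05) and by 1.02 ± 0.702 in the main fit (edgeR adjusted p = 0.599). The others of highest FPKM were Irf3, Ifngr2, Jak1 and Ifnar2.

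Sums of leukocyte markers, like Ccl8, Cxcl9, Cxcl10 and Ccl5, were highest in a library of 8276OV, and their part in the result was not tested. The macrophage sum and the T and NK cell sum were highest in 8276OV replicate 1, as Ccl8 and Ccl5 were. Cxcl9 and Cxcl10, in contrast, were highest in 8276OV replicate 2. The 18 macrophage and monocyte markers, all with reads, summed to 738, 567 and 510 CPM in 8276OV, 440 to 493 in 5NC, 445 to 484 in 8276KD and 435, 533 and 454 in 3NC. Aif1, at 269 to 343 CPM, made up most of the sum in every library except 8276OV replicate 1 (311 of 738 CPM). Without Aif1 the sums were 428, 265 and 198 CPM in 8276OV, 224, 154 and 135 in 5NC and 125 to 144 in 8276KD. So 8276OV replicate 3 lay within the range of 5NC. All 18 had higher means in 8276OV than in 5NC (median log2 fold change 0.677), edgeR and DESeq2 called 0 of them, 7 had an unadjusted p under 0.05, and the block called 4 of 17 (C1qa, C1qb, C1qc and Cd74). The 15 T and NK cell markers in the table summed to 41.8, 22.8 and 23.1 CPM in 8276OV and to 14.5 to 19.6 CPM in the other 9 libraries. Of the 7 tested, edgeR called 0 in that comparison and 4 had an unadjusted p under 0.05. DESeq2 made 1 call, and the block made 2 (Ptprc, the common leukocyte antigen, and Itgal). Cd3e, a defining T cell marker, had at most 0.434 CPM in any library. Granulocyte and mast cell markers summed to 11.8 CPM in 8276OV replicate 1 and to 1.83 to 3.68 CPM in the other 11 libraries, and that library also had the highest Ccl5 and Ccr2. The fit with the block called 1.33% of 15950 genes in either direction (0.809% higher). Among these, some markers of other cells were called lower in 8276OV than in 5NC. They were 3 of 11 for Leydig cells (Hsd3b1, Lhcgr and Nr5a1) and 2 of 17 for Sertoli cells (Inha and Amhr2). Peritubular and stromal cells had 2 of 14 (Acta2 and Myl9). Of 17 germ cell and 13 endothelial markers the block called 0. Fat and epididymis had 2 of 7 (Fabp4 and Spink8). Mean Spink8 was 11 CPM in 5NC, 0.784 in 3NC, 1.74 in 8276KD and 1.03 in 8276OV. With the block, Inha changed by -0.78 ± 0.11 (edgeR adjusted p = 6.62e-05) and Spink8 by -3.37 ± 0.31 (edgeR adjusted p = 1.59e-05). The pairing behind the block was inferred from the same values. The part of these markers in the result was not tested either.

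In 3NC, where Ccl2, Ccl7 and Cx3cl1 were high, the macrophage sum without Aif1 was 121, 203 and 127 CPM, and the T and NK cell sums were 17.0 to 18.1 CPM; neither was above the highest 5NC library. Within the macrophage list Cd14, a co-receptor for bacterial lipopolysaccharide, was singled out after its values were seen: it had 4.65 to 7.34 CPM in 3NC, 0.453 to 2.97 in 5NC, 1.08 to 1.45 in 8276KD and 1.05 to 5.66 in 8276OV. Its 3NC libraries lay above all of 5NC and 8276KD, as those of Ccl2 did, and its part in the result was not tested. The 18 markers did not share this direction: by sign, 12 were higher and 6 lower in 5NC than in 3NC (median log2 fold change 0.284). In 8276KD against 3NC, 6 were higher and 12 lower (median -0.0872). Leydig cell markers summed to 2217 to 2585 CPM in 3NC and to 1748 to 2619 in 8276KD. Endothelial markers summed to 74.5 to 76.1 CPM in 3NC and to 84.1 to 92.5 in 8276KD, and peritubular and stromal markers to 248 to 274 and 250 to 281 CPM. The sum of 20 immediate early genes, a class induced within minutes of a stimulus, was 299 to 329 CPM in 3NC, 302 to 350 in 8276KD, 167 to 200 in 5NC and 135 to 189 in 8276OV. So 8276KD, with low Ccl2, Ccl7 and Cx3cl1, was as high as 3NC in that sum.

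Single early genes did not all take that order. Egr1 had 50.2 ± 3.80 CPM in 3NC, 51.6 ± 1.80 in 8276KD, 4.6 ± 1.67 in 5NC and 4.31 ± 0.945 in 8276OV, and Fos had 3.79 ± 0.994, 12.4 ± 5.08, 1.01 ± 0.307 and 0.591 ± 0.351. Nr4a3, in contrast, had 11.8 ± 2.56 CPM in 3NC, 3.28 ± 0.419 in 8276KD, 2.99 ± 0.424 in 5NC and 2.89 ± 1.26 in 8276OV, and was, like Cx3cl1, high in 3NC alone. Of the 20 early genes, edgeR called 3 lower in 8276KD than in 3NC (Myc, Nr4a3 and Ier3), where 0.153% of all genes were. Lower than in 3NC were also 12 in 5NC (0.288% of all genes) and 14 in 8276OV (0.276%). The list was chosen with earlier results of these data known, so these counts are a description. Between 8276KD and 5NC, edgeR called 7 of the 20 higher in 8276KD, where 0.0490% of all genes were, and 0 of the 9 chemokine genes.

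**Figure D5:**
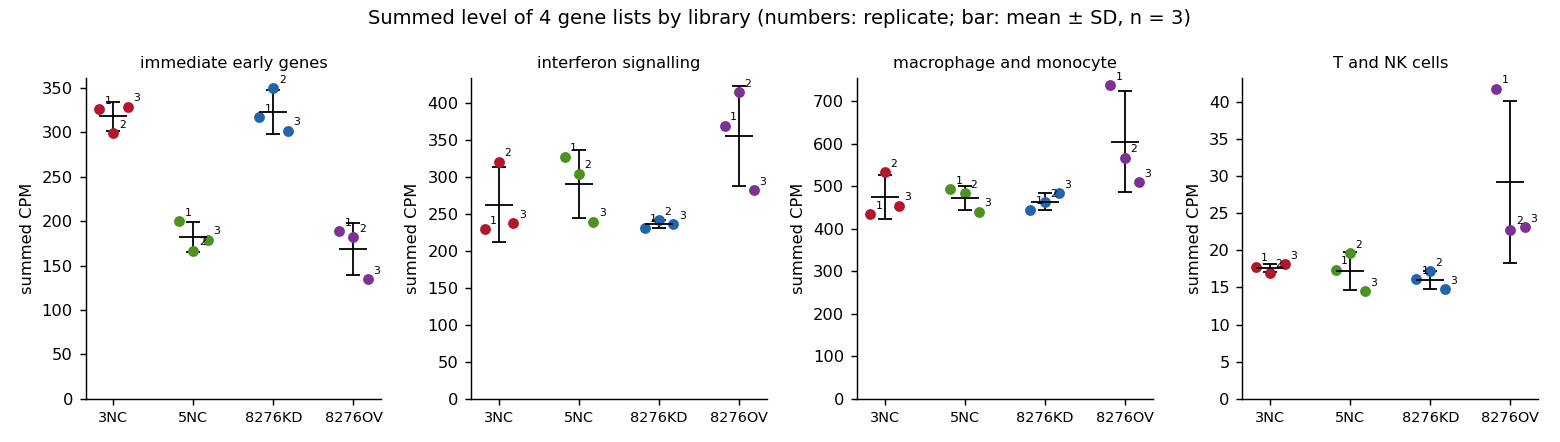
Summed CPM (vertical axis, from 0) of 4 gene lists in each library, by group; points are libraries numbered by replicate and bars are the mean ± SD of 3 libraries. The immediate early sum is 299 to 350 CPM in 3NC and 8276KD and 135 to 200 CPM in the other 2 groups, and the macrophage sum is highest in 8276OV replicate 1.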

How the data were processed

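RNA sequencing of mouse testis gave 12 libraries, 3 each of 3NC, 5NC, 8276KD and 8276OV, grouped and numbered by the sample titles. Per the file headers, the authors deposited an expected count for every gene and library, not normalised; 88.0% of these are whole within 1e-06, and all were rounded before testing. A second set of values from the authors scales with reads and length and is read here as FPKM, since in 5204 genes above 500 reads the ratio of value to CPM had a median CV of 0.53% between libraries. The build is mm10 per the submitters' processing notes. The sources used here do not give the aligner, counter, strand setting or annotation. A further 18 columns of single samples belong to no library listed here and were not used. Coordinates came from RefSeq on GRCm38.p6, matched by gene identifier for 20564 of 20718 genes.

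CPM was reads over the library total. The main test was the robust quasi-likelihood test of edgeR 4.0.16 (R 4.3.3) after TMM scaling and filterByExpr (count 10, total 15). One fit of all 4 groups left 8 residual degrees of freedom. P-values of 16320 genes, with all 9 chemokine genes among them, were adjusted by Benjamini-Hochberg within each comparison and called under 0.05. SE was derived from the fold change and its F statistic. Scripts were tested on simulated data. Likeness used log2 CPM with a prior count of 2.

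The members, lists and rules were chosen with earlier results of these data known. All 9 members are named. From other lists, the text names called genes and up to 6 of highest level; receptors of the members, Ccl11 and Ccl12 are named for their pairing or position, and Nfkbia, Il6, Tnf, Ifng and Cd3e as defining genes of their lists. Osm, Lif and Cxcl2 were named after their values were seen. Alternatives were RLE size factors, DESeq2 1.42.0, limma 3.58.1 on log2(FPKM + 0.1), other filters, the replicate block, pairs of groups and leaving out each library. Replicate numbers were checked for pairing by the correlation across genes of deviations from group means: same-numbered 8276OV and 5NC libraries had r of 0.16, 0.15 and 0.11, which met the rule of over 0.1 for every pair, and no other comparison met it. In 8276OV against 3NC, libraries of different number reached r of 0.18 and 0.14. Correlations of this size thus also occurred without a shared number. The pairing is thus inferred from the data. Results for some genes of the receptor and interferon lists are not reported here.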

Additional observations from a re-analysis of the deposited data

How the results depend on the processing

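Of 734 fold changes of the 9 genes under other settings, 648 kept both their sign and their side of the adjusted p threshold of 0.05, 26 changed sign, 46 lost a call and 14 gained one. All 46 lost calls were in comparisons with 3NC, 32 of them with a library left out. In 8276OV against 5NC, 0 of the 9 genes were called under RLE size factors, DESeq2, limma, other filters, the 6 libraries alone, the block in all 4 groups and each left-out library; the replicate block in 6 libraries called 3. Of all genes, DESeq2 called 44 there, that last block 212, fits with a left-out library 0 to 5 and the other settings 0. In 8276KD against 3NC the count was 3, with limma 1, with the block in all 4 groups 2, and 1 to 2 over left-out libraries. Over all genes the count was 29, with limma 16, with that block 22, and 10 to 22 over left-out libraries. In 5NC against 3NC the count of the 9 genes was 3, with limma 1, DESeq2 4, the block 2 in all 4 groups and 4 in 6 libraries, and 1 in every fit that left out a library. Over all genes it was 59, with limma 31, with DESeq2 150, with those blocks 50 and 94, and 16 to 66 over left-out libraries. In 8276OV against 3NC the count of the 9 genes was 2. The block in all 4 groups, limma, the 6 libraries alone and the block in 6 libraries each gave 0. Left-out libraries gave 0 to 2. Over all genes it was 52, with those 4 settings 29, 28, 18 and 4, and 27 to 81 over left-out libraries. In 8276OV against 8276KD the count of the 9 genes was 0, with DESeq2 2, with the block 1 in all 4 groups (Cxcl10, log2 fold change 4.10, edgeR adjusted p = 0.0381) and 1 in 6 libraries (Cxcl9, 2.91, edgeR adjusted p = 0.0344), and 0 to 1 over left-out libraries. Over all genes it was 9, with DESeq2 139, with those blocks 31 and 46, and 5 to 74 over left-out libraries. In 8276KD against 5NC the count of the 9 genes was 0 throughout, beside 4 to 36 of all genes. The cause of these changes was not tested; leaving out a library leaves fewer samples.

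All 26 sign changes came from leaving out 1 library, 15 of them in comparisons with 3NC. In 5NC against 3NC, log2 fold changes over left-out libraries ran from -0.18 to 2.18 for Ccl8, from -1.25 to 0.946 for Cxcl9, from -1.29 to 0.575 for Cxcl10 and from -0.185 to 0.256 for Ccl5. In 8276KD against 3NC they ran from -0.09 to 2.25 for Ccl8 and from -0.334 to 0.107 for Ccl5, and in 8276OV against 3NC from -0.363 to 0.0714 for Cxcl12. In 8276KD against 5NC they ran from -1.76 to 0.654 for Ccl2 (0.0113 without 8276KD replicate 1, 0.306 without 8276KD replicate 2), from -0.244 to 0.539 for Ccl8 and from -0.314 to 0.0145 for Ccl5. In 8276OV against 8276KD they ran from -0.301 to 0.453 for Cx3cl1, from -1.35 to 0.0865 for Cxcl1 (0.00294 without 8276KD replicate 3) and from -0.164 to 0.336 for Cxcl12 (-0.033 without 8276KD replicate 3). In 8276OV against 5NC Cx3cl1 ran from -0.534 to 0.214. Depth limits Ccl2, Ccl7, Cxcl1 and Cxcl10 most: groups held as few as 5, 7, 10 and 6 reads. The macrophage sum without Aif1 was chosen after seeing the data.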
